A study of Mus musculus with 10 samples.

Results

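The genes described here are 32 genes of sterol and fatty acid synthesis, chosen by name: the enzymes that build cholesterol from acetyl-CoA, the proteins that regulate, move or remove sterol, and the enzymes that make and desaturate fatty acids. They were measured in the brains of mice at day 7 of controlled cortical impact, an injury model in which a driven tip indents the exposed cortex on one side, here by 2 mm. Per the labels the mice were of both sexes and 8 to 12 weeks old, and no strain, genotype or drug is named. Tissue from the injured side (ipsilateral, 5 arrays) was set against the matching region of the opposite hemisphere (contralateral, 5 arrays), so the contralateral tissue belongs to injured animals too, and no uninjured mice were analysed here. Of the 32 genes, 27 had a probe set that named them alone, among 30142 genes tested. The rows of Tm7sf2, Msmo1, Srebf1 and Scd2 also carried another symbol and were not tested, and no row was matched to Acat2. All 27 measured genes had side means of at least 6.36 on the log2 signal scale. That is above the median of every array, 4.79 to 4.84 on ipsilateral arrays and 4.71 to 4.77 on contralateral ones. The RNA came from whole tissue, so a lower signal from fewer cells of a type and one from less RNA per cell cannot be told apart. The labels call the arrays biological replicates without saying how many mice they came from, so the p-values measure the spread between these samples. On all 10 arrays Xist, the RNA of the inactive X chromosome, stood between 4.53 and 4.67 and the Y-linked gene Uty between 8.60 and 8.88, although the labels name both sexes.

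Cholesterol in the brain is made almost wholly on site, since lipoproteins of the blood do not cross an intact blood-brain barrier. Most of it lies in myelin, and oligodendrocytes and astrocytes make much of what neurons use. The transcription factor encoded by Srebf2 is held in the endoplasmic reticulum by the escort protein Scap and the Insig proteins while sterol is plentiful. When sterol falls it travels to the Golgi, is cleaved and turns on genes of the pathway, Insig1 among them, while its relative encoded by Srebf1 acts mainly on fatty acid genes. Nuclear factor Y (NF-Y) and Sp1 often bind next to it at these promoters.

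RefSeq promoter windows of GRCm38.p6 were matched for 26 of the 32 genes, and the stretches below are shown because they belong to the first enzyme of the list and to called genes with a motif in the window. The motifs below were searched on both strands of the 250 bases before the start site: the sterol regulatory element core TCACNCCAC, the NF-Y box CCAAT, the Sp1 box GGGCGG and the E-box CACGTG. Each line gives the 150 bases before the start site on the gene's own strand, with the sterol element core and the NF-Y box, or its reverse complement ATTGG, in capitals.
Hmgcs1, chr13:119690201-119690350, plus strand: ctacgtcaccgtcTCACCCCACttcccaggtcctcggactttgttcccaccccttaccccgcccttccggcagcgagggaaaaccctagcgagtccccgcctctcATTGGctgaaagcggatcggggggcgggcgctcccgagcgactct
Idi1, chr13:8885456-8885605, plus strand: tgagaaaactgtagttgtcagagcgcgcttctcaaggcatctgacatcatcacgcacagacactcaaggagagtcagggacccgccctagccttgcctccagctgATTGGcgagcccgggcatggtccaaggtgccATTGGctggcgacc
Pmvk, chr3:89454391-89454540, plus strand: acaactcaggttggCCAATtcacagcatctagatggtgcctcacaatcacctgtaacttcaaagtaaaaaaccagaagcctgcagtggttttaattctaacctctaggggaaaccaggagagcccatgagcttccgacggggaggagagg
Srebf2, chr15:82147119-82147268, plus strand: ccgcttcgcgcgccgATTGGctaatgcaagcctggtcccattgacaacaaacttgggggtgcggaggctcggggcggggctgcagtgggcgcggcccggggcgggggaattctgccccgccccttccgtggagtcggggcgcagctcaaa

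The sterol element core as spelled was found in 1 of the 26 windows, that of Hmgcs1, beginning 137 bases before the start, and in 1.22% of all 27025 genes with a window. The NF-Y box was found in 21 of 26 (80.8%), against 37.5% of all genes and 39.5% of 17491 protein-coding genes. The Sp1 box was also found in 21 of 26, against 35.4% and 45.8%, and the E-box in 5 of 26 (19.2%), against 6.86% and 7.61%. These are matches of letters, with no test, and a gene with several windows counted once if any of them held the motif. Pmvk has a second window, which held neither marked motif, and the window of Acaca held none of the motifs searched.

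Nearly all measured sterol and fatty acid synthesis genes had a lower mean on the injured side, and a minority of them passed the test. A gene was called at an adjusted p under 0.05 in limma (Benjamini-Hochberg over all genes), and 5 of the 27 were called, all lower: Idi1, Fdft1 and Pmvk among the sterol enzymes, the regulator Srebf2, and the fatty acid enzyme Acaca. That is 18.5%, where 4.33% of all genes tested were called lower, and none was called higher, where 1.22% of all genes were. The log2 fold change (ipsilateral minus contralateral) was negative in 25 of the 27, 0.00 for Ebp and positive for Elovl6. Its median was -0.25, against 0.02 over all genes, where 43.6% were negative. At an unadjusted p under 0.05, 13 of 27 were lower (48.1%, against 11.3% of all genes) and 0 higher. Every ipsilateral array lay below every contralateral one for 5 of 27 (18.5%), against 5.21% of all genes. The genes were chosen by name, but with earlier results of these data known. These shares therefore describe the list and are no test of it.

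**Figure D1:**
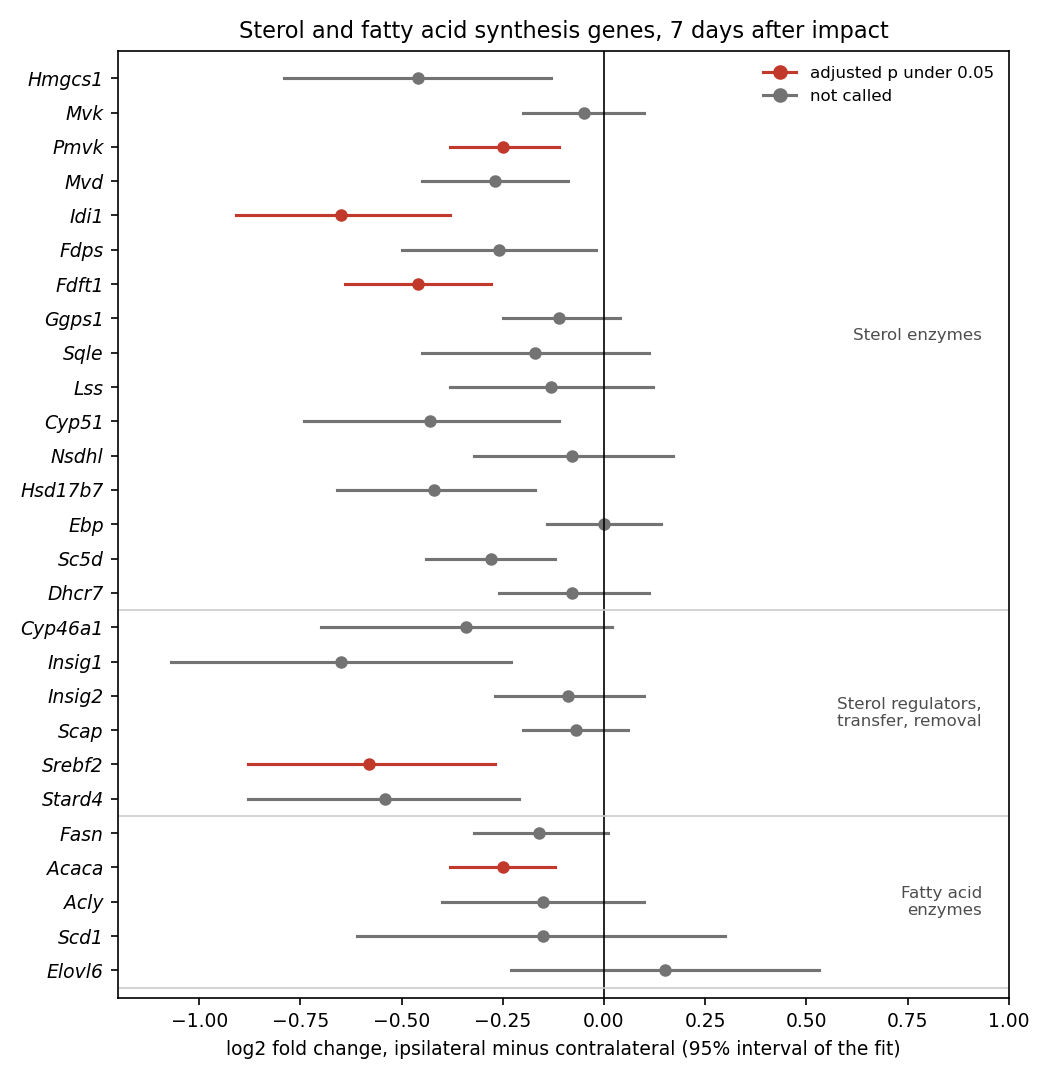
Log2 fold change, ipsilateral minus contralateral, for the 27 measured genes grouped by role, with the 95% interval of the limma fit (5 arrays per side); red marks an adjusted p under 0.05. Nearly all points lie left of 0, from -0.65 (Idi1 and Insig1) to 0.15 (Elovl6), and the 5 called genes are spread over the 3 roles.

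The count of called genes depended on scaling and on single arrays, and the median did not change sign in any alternative tried. The array medians over all rows did not overlap between the sides (ipsilateral 4.79 to 4.84, contralateral 4.71 to 4.77). With each array centred on its median, 10 of 27 were called lower, where 7.07% of all genes were, and rises made up 9.55% of all calls instead of 22%. With quantile or cyclic loess scaling 2 of 27 were called lower, where 1113 and 970 of all 30142 genes were. Rises made up 21.1% and 32.4% of all calls under these scalings. The median over the 27 genes lay between -0.31 (median scaling) and -0.16 (cyclic loess). With single arrays left out, the count was 10 without ipsilateral replicate 1, 5 without ipsilateral replicate 3, 4 without contralateral replicate 2, and 2 without any 1 of the other 7. The calls among all 30142 genes moved too. In the same order 1607, 1232 and 1039 of them were called lower, and 740 to 1187 without any 1 of the other 7. The arrays numbered 2 and 4 on both sides carried choroid plexus signal: the mean of 4 choroid plexus markers was 10.11 and 8.18 on ipsilateral arrays 2 and 4 and 10.86 and 7.63 on the contralateral ones, and 5.37 to 5.95 on the other 6 arrays. Without those 4 arrays, a setting chosen after seeing the data, 0 of 27 were called lower, as were 0.959% of all genes, and the median was -0.21.

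The early pathway turns acetyl units into the isoprenoid building blocks shared by cholesterol, dolichol and prenylated proteins. Idi1, the isomerase that makes dimethylallyl diphosphate, stood at 9.18, 8.88, 8.96, 8.79 and 8.50 on ipsilateral arrays 1 to 5 and at 9.49, 9.36, 9.38, 9.66 and 9.66 on contralateral arrays 1 to 5. The highest ipsilateral array was below the lowest contralateral one. The log2 fold change was -0.65 ± 0.12 (SE, adjusted p = 0.0111), a linear ratio of 0.638. Pmvk, phosphomevalonate kinase, had ipsilateral signals of 7.97, 7.79, 7.90, 7.87 and 7.78 and contralateral ones of 8.13, 7.98, 8.08, 8.14 and 8.21. The sides did not overlap, but ipsilateral array 1 and contralateral array 2 nearly met. Its log2 fold change was -0.25 ± 0.06 (adjusted p = 0.0453, ratio 0.843).

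The Idi1 call held without any single array (adjusted p from 0.00443 to 0.0342) and was lost once the arrays numbered 2 and 4 were left out (log2 fold change -0.63, adjusted p = 0.167). The Pmvk call held in 10 of 22 alternatives, median scaling (0.0153) among them. With single arrays left out it held without ipsilateral replicate 1 (0.0289) or contralateral replicate 2 (0.0368). Without any 1 of the other 8 arrays its adjusted p was 0.0600 to 0.111, and with quantile and cyclic loess scaling it was 0.0632 and 0.0914. Without the arrays numbered 2 and 4 the fold change was -0.26 (adjusted p = 0.232).

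The other 5 measured enzymes of this stretch did not pass. Hmgcs1, HMG-CoA synthase, which condenses acetoacetyl-CoA with acetyl-CoA, had means of 13.91 ± 0.33 ipsilaterally and 14.38 ± 0.17 contralaterally (mean ± SD, n = 5 per side; log2 fold change -0.46, adjusted p = 0.104). Mvd, the mevalonate diphosphate decarboxylase, had a fold change of -0.27 (adjusted p = 0.0849, and 0.0442 with median scaling). Fdps, which makes farnesyl diphosphate, had one of -0.26 (adjusted p = 0.196). For Mvk, mevalonate kinase, the fold change was -0.05 with a 95% interval of -0.20 to 0.10, and it was 0.01 without the arrays numbered 2 and 4. Ggps1, which leads off to geranylgeranyl diphosphate for protein prenylation rather than to sterol, had a fold change of -0.11 with an interval of -0.25 to 0.04.

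Fdft1, squalene synthase, makes the first intermediate that can only become sterol. Its ipsilateral signals were 9.15, 8.91, 9.16, 8.91 and 8.81 and its contralateral ones 9.52, 9.33, 9.52, 9.48 and 9.38. The groups did not overlap. Fdft1 had the largest moderated statistic of the 27 genes, with a log2 fold change of -0.46 ± 0.08 (adjusted p = 0.00943, ratio 0.728). The call held without any single array (adjusted p up to 0.0332) and under every scaling tried (up to 0.0227), and was lost once the arrays numbered 2 and 4 were left out (-0.43, adjusted p = 0.152).

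None of the 8 measured enzymes after squalene was called, and 7 had negative fold changes. Hsd17b7, a keto reductase of the demethylation steps, stood at 8.39, 7.88, 8.35, 8.04 and 7.93 ipsilaterally and at 8.73, 8.46, 8.47, 8.52 and 8.49 contralaterally. The groups did not overlap, yet the gene narrowly missed the threshold (-0.42 ± 0.11, adjusted p = 0.0546). Sc5d, a late desaturase, stood at 11.02, 10.87, 11.11, 10.92 and 10.78 against 11.30, 11.10, 11.21, 11.29 and 11.19. Only ipsilateral array 3 reached the contralateral range (-0.28 ± 0.07, adjusted p = 0.0522). Both genes passed without ipsilateral replicate 1 (0.0212 for Hsd17b7, 0.0462 for Sc5d) or ipsilateral replicate 3 (0.0369 and 0.0283), and with median scaling (0.0321 and 0.0305). Cyp51, the lanosterol demethylase, had means of 9.17 ± 0.33 and 9.59 ± 0.12 (-0.43, adjusted p = 0.117, and 0.0240 without ipsilateral replicate 1).

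For the remaining 5 measured enzymes after squalene the 95% interval of the fold change included 0. These were Sqle, the epoxidase that is a known flux control point (-0.17, interval -0.45 to 0.11), Lss, which closes the sterol rings (-0.13, interval -0.38 to 0.12), and Nsdhl, a dehydrogenase of the demethylation steps (-0.08, interval -0.32 to 0.17, and 0.01 without the arrays numbered 2 and 4). Dhcr7, which carries out a last reduction to cholesterol, had -0.08 (interval -0.26 to 0.11). Ebp, the sterol isomerase, had the same mean on both sides, 6.36 ± 0.08 and 6.36 ± 0.10 (interval -0.14 to 0.14). The intervals of Sqle, Lss, Nsdhl and Dhcr7 all include the fold change of Pmvk and Acaca (-0.25), and none includes those of Idi1 or Srebf2. Differences between genes were not tested. The row of Msmo1, which was left out because it also carried the older symbol Sc4mol of the same gene, gave 7.81 ± 0.22 against 8.18 ± 0.12 when added to the fit after the annotation had been seen (-0.37 ± 0.10, adjusted p = 0.0675).

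**Figure D2:**
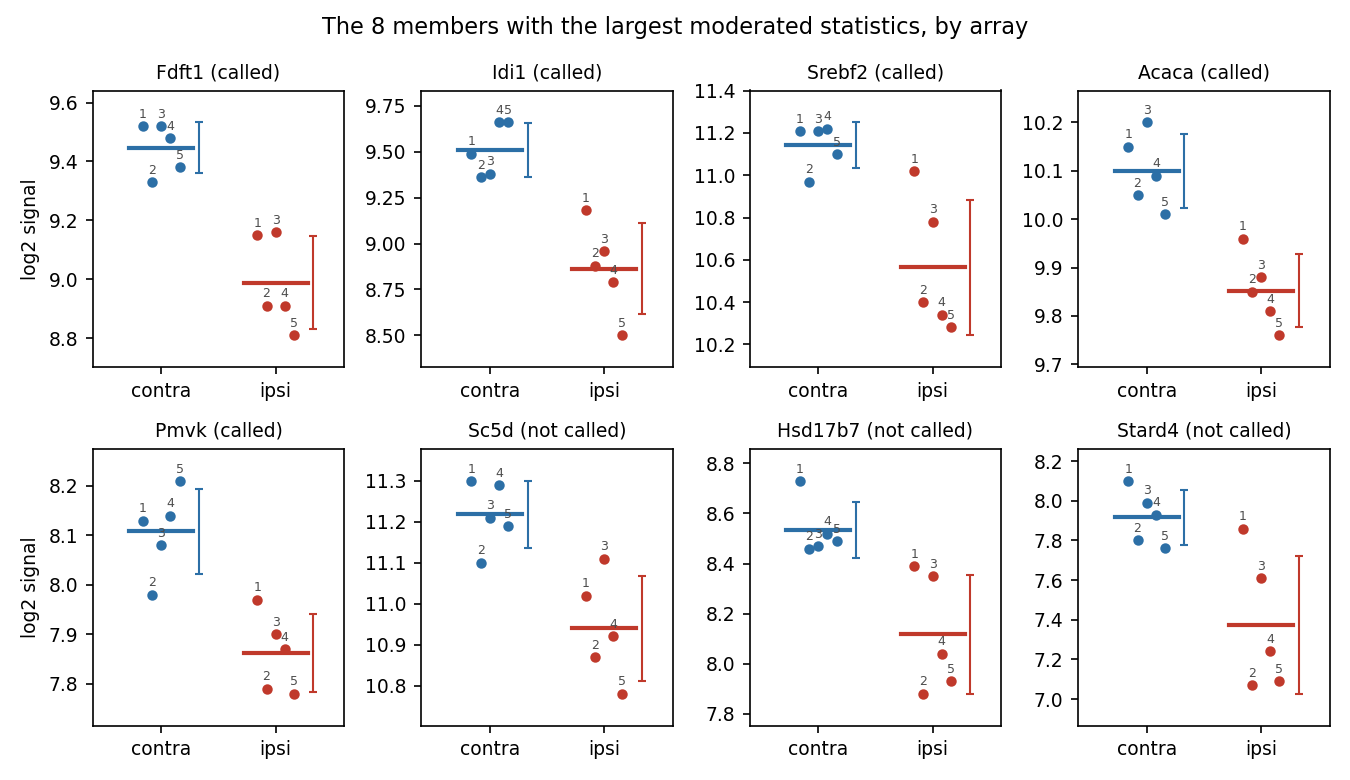
Log2 signal of the 8 measured genes with the largest moderated statistics, one point per array with its replicate number, a bar for the mean of 5 arrays and a whisker for ± 1 SD; each panel has its own axis. The sides do not overlap for Fdft1, Idi1, Acaca, Pmvk and Hsd17b7, while ipsilateral array 1 reaches the contralateral range for Srebf2 and Stard4 and ipsilateral array 3 for Sc5d.

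Of the 6 measured genes that regulate, move or remove sterol, 1 was called lower, and all 6 had negative fold changes with a median of -0.44. Srebf2, the transcription factor gene, stood at 11.02, 10.40, 10.78, 10.34 and 10.28 ipsilaterally and at 11.21, 10.97, 11.21, 11.22 and 11.10 contralaterally. Ipsilateral array 1 lay inside the contralateral range, and the other 4 lay below it. The log2 fold change was -0.58 ± 0.14 (adjusted p = 0.0362, ratio 0.670). Without ipsilateral replicate 1 the adjusted p was 0.00509. The call also held without ipsilateral replicate 3 (0.0363) or contralateral replicate 2 (0.0492) and ended without any 1 of the other 7 arrays (0.0700 to 0.0934), with quantile (0.0616) and cyclic loess scaling (0.0667), and without the arrays numbered 2 and 4 (0.277, with a fold change of -0.48). It held with median scaling (0.0257).

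The sterol-responsive genes Insig1 and Stard4 did not pass, and their ipsilateral arrays split as those of Srebf2 did. Stard4, a cytosolic sterol carrier, stood at 7.86, 7.07, 7.61, 7.24 and 7.09 against 8.10, 7.80, 7.99, 7.93 and 7.76. Its first ipsilateral array lay in the contralateral range and the others below it (-0.54 ± 0.15, adjusted p = 0.0650, and 0.0104 without ipsilateral replicate 1). Insig1, a retention protein whose gene is turned on when sterol falls, had means of 9.69 ± 0.43 and 10.34 ± 0.20. Its fold change was -0.65 ± 0.19, as large as that of Idi1 with a wider error (adjusted p = 0.0746, and 0.0103 without ipsilateral replicate 1). In Srebf2, Insig1 and Stard4 the ipsilateral arrays numbered 1 and 3 stood above those numbered 2, 4 and 5.

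Both remaining parts of the retention machinery had small fold changes. Insig2 had -0.09 (interval -0.27 to 0.10) and Scap, the escort protein, -0.07 (interval -0.20 to 0.06, and 0.01 with cyclic loess scaling). Cyp46a1, the mostly neuronal hydroxylase that turns cholesterol into a form able to leave the brain, had means of 12.38 ± 0.37 and 12.72 ± 0.17 (-0.34, adjusted p = 0.267). Its lowest array was ipsilateral 1 at 11.86, the array that was highest of its side for Srebf2, Insig1 and Stard4.

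Of the 5 measured fatty acid enzymes, 1 was called lower, and the median fold change was -0.15. Acaca, the acetyl-CoA carboxylase that commits carbon to fatty acids, stood at 9.96, 9.85, 9.88, 9.81 and 9.76 ipsilaterally and at 10.15, 10.05, 10.20, 10.09 and 10.01 contralaterally. The groups did not overlap, and ipsilateral array 1 came close to contralateral array 5. Its log2 fold change was -0.25 ± 0.06 (adjusted p = 0.0367, ratio 0.842). The call held without ipsilateral replicate 1 (0.0230) and ended without any 1 of the other 9 arrays (0.0508 to 0.0987), with quantile (0.115) and cyclic loess scaling (0.151), and without the arrays numbered 2 and 4 (0.265), where the fold change was still -0.25. It held with median scaling (0.0216).

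The other 4 fatty acid enzymes did not pass. Fasn, the fatty acid synthase, had means of 11.27 ± 0.13 and 11.43 ± 0.09 (-0.16, interval -0.32 to 0.01). Acly, which supplies cytosolic acetyl-CoA from citrate, had a fold change of -0.15 (interval -0.40 to 0.10). Scd1, a stearoyl-CoA desaturase with close paralogs, had -0.15 (interval -0.61 to 0.30) in its brighter probe set and means of 9.35 ± 0.38 and 10.06 ± 0.46 in its dimmer one, a difference of -0.71. With the mean of both probe sets the fold change was -0.43 (adjusted p = 0.276). Elovl6, an elongase of saturated and monounsaturated chains, was the one gene with a positive fold change (0.15, interval -0.23 to 0.53).

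**Figure D3:**
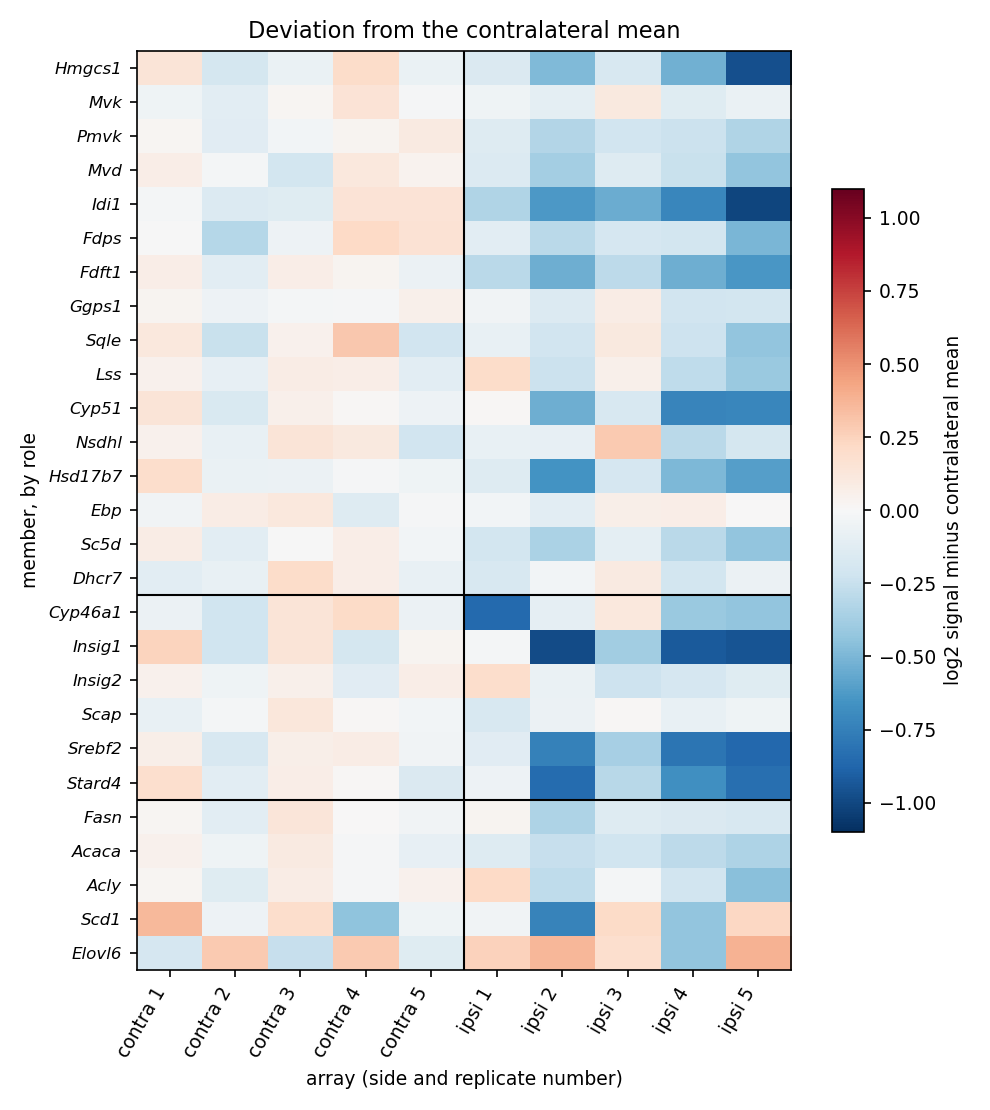
Log2 signal of each measured gene on each array minus its contralateral mean, with genes ordered by role and the black vertical line between contralateral and ipsilateral arrays; blue is below and red above the contralateral mean. Ipsilateral arrays 2, 4 and 5 are blue for most sterol genes, arrays 1 and 3 less so, and Ebp, Scd1 and Elovl6 depart from the pattern.

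Arrays differed within both sides. Contralateral array 2 was the lowest of its side for 16 of the 27 genes and below the contralateral mean for 25. Ipsilateral array 5 was the lowest of its side for 12 of the 27 genes (ties counted), while array 1 was the highest for 14 and array 3 for 10. The number of genes below the contralateral mean was 21, 26, 16, 26 and 24 on ipsilateral arrays 1 to 5. The mean over the 16 sterol enzymes was 8.81, 8.60, 8.85, 8.59 and 8.48 on ipsilateral arrays 1 to 5 and 8.97, 8.81, 8.93, 9.01 and 8.90 on contralateral ones. Ipsilateral arrays 1 and 3 thus touched the contralateral range at its lower end, which contralateral array 2 set. The SD was larger ipsilaterally for 18 of the 27 genes.

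Other genes of the pathway, from a list of 41 of which 33 were measured, were split in direction. Of these 1 was called lower (3.03%, against 4.33% of all genes) and 0 higher, 16 had negative and 17 positive fold changes, and the median was 0.01. In limma 6 were lower (18.2%, against 11.3% of all genes) and 3 higher at an unadjusted p under 0.05, where 3020 of all 30142 genes were higher. The called gene was Hsd17b12, the keto reductase of fatty acid chain elongation, with means of 10.09 ± 0.17 ipsilaterally and 10.45 ± 0.07 contralaterally (-0.36 ± 0.08, adjusted p = 0.0310). Its call held without ipsilateral replicate 1 (0.0179), 3 (0.0476) or 4 (0.0247), and ended without any 1 of the other 7 arrays (0.0509 to 0.0818), with quantile (0.0723) and cyclic loess scaling (0.114), and without the arrays numbered 2 and 4 (0.181, with a fold change of -0.39). The next largest statistics were those of Acss2, which makes cytosolic acetyl-CoA from acetate (7.10 ± 0.13 against 7.41 ± 0.11, adjusted p = 0.0514), and of Erlin2, an endoplasmic reticulum protein that takes part in sterol-driven degradation (9.74 ± 0.11 against 9.40 ± 0.17, adjusted p = 0.0543). Neither passed the threshold.

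**Figure D4:**
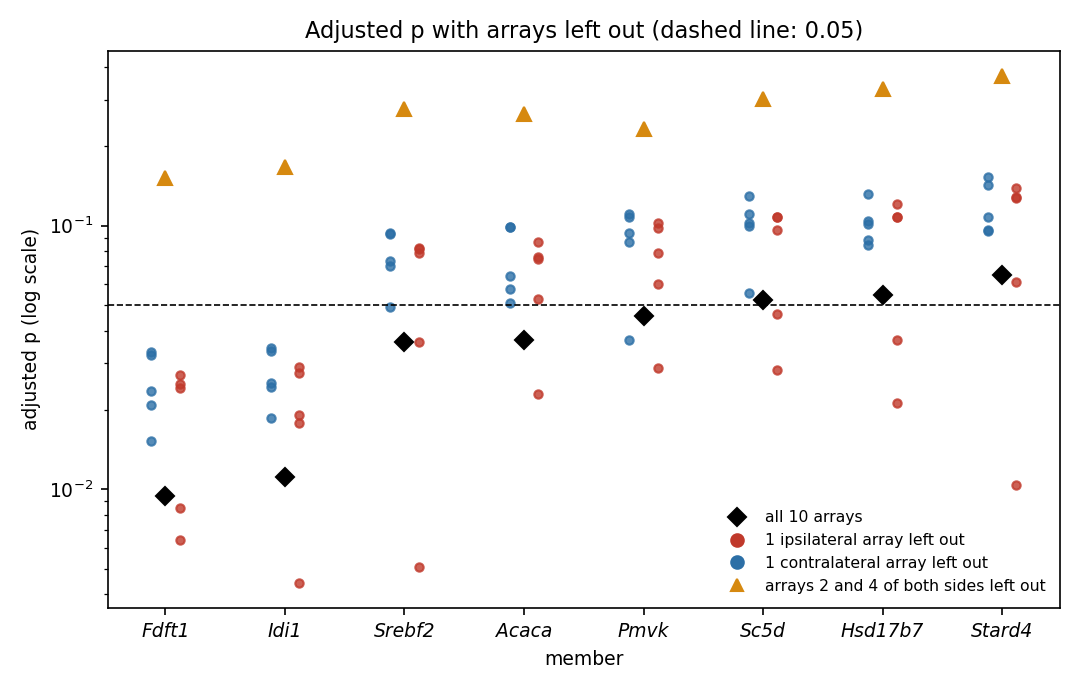
Adjusted p (log axis) of the 8 genes with the largest moderated statistics with all 10 arrays (black), with 1 array left out (red ipsilateral, blue contralateral) and with the arrays numbered 2 and 4 left out on both sides (orange triangles). Fdft1 and Idi1 stay under the dashed line at 0.05 without any single array, and all 8 genes lie above it without the arrays numbered 2 and 4.

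Markers of cell types moved between the sides beside the sterol genes, and their part in the results above was not tested. All 11 measured oligodendrocyte markers had negative fold changes (median -1.19), and 2 were called lower: Mal (-1.26, adjusted p = 0.0148) and Opalin (-1.52, adjusted p = 0.0164), both proteins of myelinating cells. The mean over the 11 markers ranged from 9.53 to 10.80 ipsilaterally and from 10.13 to 11.54 contralaterally. Of 10 neuron markers 3 were called lower, Nefm (7.24 ± 0.34 against 8.23 ± 0.24, adjusted p = 0.00663) and Rbfox3 (-0.54, adjusted p = 0.0102) with the largest statistics, and the list mean was 13.19 to 13.65 against 13.42 to 13.70. The list was not uniform: 8 markers had negative and 2 positive fold changes, the latter being Gap43, a growth cone protein (0.53, adjusted p = 0.204), and Map2 (0.14, adjusted p = 0.494). None of the 5 measured markers of oligodendrocyte precursors and committed precursors was called (Bcas1 -0.32, Gpr17 0.14). Their mean was 7.21 to 8.01 against 7.43 to 7.73. The precursor marker Pdgfra was on that list but was not among the genes tested.

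Astrocyte, microglial and fibroblast markers had mostly positive fold changes. Of 8 astrocyte markers 1 was called higher, the water channel gene Aqp4 (0.95, adjusted p = 0.0117), with Slc1a3 next (0.47, adjusted p = 0.0623), and the list mean was 11.12 to 12.05 against 10.90 to 11.28. The fold changes of 2 markers were negative, Aldh1l1 (-0.36, adjusted p = 0.121, with 4 of 5 ipsilateral arrays below the contralateral range) and Slc1a2 (-0.15, adjusted p = 0.454). All 10 microglia and macrophage markers had positive fold changes (median 0.87) and 0 were called in limma, while 9 were higher at an unadjusted p under 0.05. C1qb (1.83, adjusted p = 0.0580) and Ptprc (0.84, adjusted p = 0.0769) had the largest statistics, and the list mean was 8.20 to 9.92 against 7.81 to 8.46. Of 4 fibroblast markers 2 were called higher, Dcn (2.88, adjusted p = 0.0250) and Col1a1 (0.80, adjusted p = 0.0398), with a list mean of 7.44 to 9.12 against 6.48 to 7.22. Of 6 endothelial and pericyte markers 0 were called, and 2 had an unadjusted p under 0.05 (Flt1 -0.36, Cldn5 0.37), with a list mean of 8.24 to 8.80 against 8.23 to 8.68. Of the 4 choroid plexus markers 0 were called (Ttr -0.50, Kl 0.37) and 0 had an unadjusted p under 0.05.

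Within a side the sterol enzymes and the oligodendrocyte markers did not keep the same order of arrays. Contralateral array 4 had the lowest oligodendrocyte mean of its side (10.13) and the highest sterol enzyme mean (9.01). Ipsilateral arrays 4 and 5 had the highest oligodendrocyte means of their side (10.80 and 10.44) and the lowest sterol enzyme means (8.59 and 8.48). The same pair of arrays had the highest microglia and macrophage means (9.92 and 9.69). The neuron markers and the sterol enzymes shared their highest and lowest arrays, but not the whole order. Both means were highest on ipsilateral array 3 (neurons 13.65) and lowest on ipsilateral arrays 4 and 5 (13.19 each). Contralaterally both were highest on array 4 (13.70) and lowest on array 2 (13.42). Ipsilateral arrays 1 and 2 changed places, at 13.29 and 13.47 for neurons and 8.81 and 8.60 for sterol enzymes. The sterol enzyme mean of ipsilateral array 2 thus lay close to the 8.59 of array 4. Contralaterally the next to lowest array was array 3 for neurons (13.59) and array 5 for sterol enzymes (8.90). With 5 arrays a side these orders are a description, and a link of the sterol enzymes to either cell type was not tested.

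**Figure D5:**
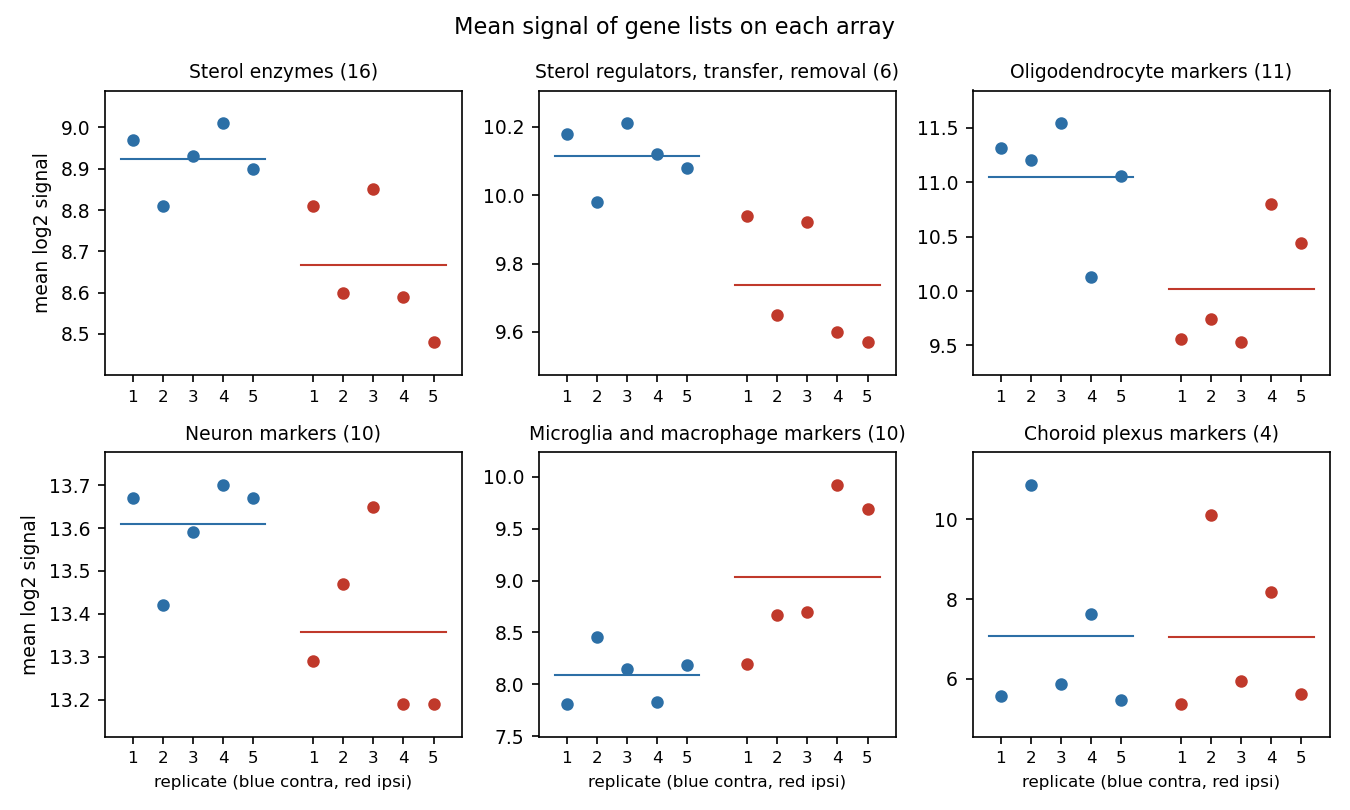
Mean log2 signal of the sterol enzymes, of the sterol regulators and of 4 marker lists on each array, with a line for the mean of each side (blue contralateral, red ipsilateral, each panel with its own axis and the number of genes in its title). Sterol enzymes are lowest on ipsilateral arrays 2, 4 and 5, neuron markers on ipsilateral arrays 1, 4 and 5, and oligodendrocyte markers on ipsilateral arrays 1, 2 and 3. Choroid plexus markers stand high on arrays 2 and 4 of both sides.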

How the data were processed

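RNA of 10 tissue samples (5 per side) was hybridised to Affymetrix whole-transcript arrays. The values are the log2 signals the authors deposited, for which the submitters' processing notes name Transcriptome Analysis Console 4.0; the background correction and normalization behind them are not given in the sources used here. Signals ran from 1.97 to 19.93. Precision is limited by the number of arrays.

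Of 65956 rows, 30604 named 1 gene, 2146 several and 33206 none. Symbols were updated through Entrez IDs (22818 rows matched, 827 changed), and the row with the highest mean over the 10 arrays stood for each gene, which left 30142 genes and set 462 dimmer rows aside. Ipsilateral and contralateral arrays were compared with limma 3.58.1 (lmFit and eBayes, R 4.3.3), two-sided, with Benjamini-Hochberg adjustment over all 30142 genes. The fit was also run on simulated data with independent noise, as a check of the code. That run does not measure power or false calls in these arrays.

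The genes and lists were chosen with earlier results of these data known. Every measured gene of the list is named, with each array's value for called genes and the 8 largest moderated statistics. Of the other pathway genes the called ones and the 3 largest statistics are named, and of each marker list 2; Gap43, Map2, Aldh1l1 and Slc1a2 were added after their values were seen, because their sign opposed that of their list. Alternatives were the scaling, dim-gene filters (25% and 50%), the row chosen, the variance model, array weights, a threshold of 0.01, the replicate number as a block, and single arrays left out. Leaving out the arrays numbered 2 and 4 and adding the Msmo1 row were chosen after seeing the data. Promoter windows are RefSeq's for GRCm38.p6. Fdps, Fdft1, Sqle, Stard4, Scd1 and Scd2 had none in the table used.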

Additional observations from a re-analysis of the deposited data

Results flagged for a closer look

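In 54 groups of 5 arrays (27 genes on 2 sides), the gap between the extreme array and its nearest neighbour was set against the group's range, and 2 passed Dixon's 95% critical value of 0.71, where chance alone passes about 1 in 20. Hsd17b7 stood at 8.73 on contralateral array 1, above the other 4 arrays of that side (8.46 to 8.52). Elovl6 stood at 10.48 on ipsilateral array 4, below the other 4 (11.10 to 11.30).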

How the results depend on the processing

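The median over the 27 genes stayed negative in every alternative run, and 0 of them were called higher in any. Of the 27, 5 were called lower with all arrays, 10 with median scaling or array weights, 2 with quantile or cyclic loess scaling, 9 without the dimmest 50% of genes, 1 at a threshold of 0.01, 0 without the arrays numbered 2 and 4, and 2 to 10 with 1 array left out. Sterol enzymes called lower numbered 3, but 6 with median scaling or array weights, 5 without the dimmest 25% or 50%, 1 at 0.01, 0 without arrays 2 and 4, and 2 to 6 with 1 array left out. Regulators called lower numbered 1, but 3 with median scaling, array weights or without the dimmest 50%, 0 with quantile or cyclic loess scaling, at 0.01 or without arrays 2 and 4, and 0 to 3 with 1 array left out. Fatty acid enzymes called lower numbered 1, but 0 with quantile or cyclic loess scaling, at 0.01 or without arrays 2 and 4, and 0 to 1 with 1 array left out. Other pathway genes called lower numbered 1, but 3 with median scaling, 2 without the dimmest 25% or 50% or with array weights, 0 with quantile or cyclic loess scaling, at 0.01 or without arrays 2 and 4, and 0 to 2 with 1 array left out. Those called higher numbered 0, but 1 with quantile scaling or without the dimmest 25% or 50%, 2 with cyclic loess scaling or array weights, and 0 to 1 with 1 array left out. Of all genes 1305 were called lower and 369 higher, but 2130 and 225 with median scaling, 537 and 47 at 0.01, 289 and 77 without arrays 2 and 4, and 740 to 1607 and 111 to 760 with 1 array left out, and 656 higher with array weights. Those called lower numbered 1113 with quantile scaling, 970 with cyclic loess scaling and 1614 with array weights. Without the dimmest 50% they numbered 1637, out of the brighter 50% of genes only, so the share called was larger than the count alone shows. The sign turned for Mvk and Nsdhl (0.01 each) without arrays 2 and 4 and for Scap (0.01) with cyclic loess scaling. Fewer arrays entered where arrays were left out. The threshold of 0.01 was a stricter cut on the same fit. The dim-gene filters left the fold changes of the 27 genes as they were and adjusted over fewer genes. Median scaling moved those fold changes by -0.06 on average. For the other changes the cause was not tested.

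The labels number the arrays 1 to 5 on both sides without saying that a number marks 1 mouse. Deviations from the side means correlated at -0.399 to 0.259 between same-numbered arrays, over 0.1 in 2 of 5 pairs. Of 10 arrays, 3 correlated best with their own number. The choroid plexus signal did go with the number: its marker mean was 10.11 ipsilaterally and 10.86 contralaterally on the arrays numbered 2. It was 8.18 and 7.63 on those numbered 4, and 5.37 to 5.95 on the rest. Whether same-numbered arrays share a mouse cannot be told from the labels. The main fit did not pair them, and the block fits are given as alternatives. With a fixed replicate block, 4 of the 27 genes were called lower, 1 sterol enzyme, 3 regulators and 0 fatty acid enzymes, 0 other pathway genes, and 769 lower and 177 higher of all genes. Under this block Idi1 (0.0572), Pmvk (0.110) and Acaca (0.0771) missed the threshold and Insig1 (0.0321) and Stard4 (0.0350) passed it. With a random block 2 other pathway genes were called lower.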

Other observations

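The rows shared with another symbol were outside the fit. The row naming Srebf1 and the microRNA gene Mir6922 stood at 7.19 ± 0.37 ipsilaterally and 6.77 ± 0.11 contralaterally (mean ± SD, n = 5 per side), with 7.55 and 7.65 on ipsilateral arrays 4 and 5 and 6.87 to 6.95 on the other 3. The row naming Scd2 and Mir5114 stood at 17.03 ± 0.16 and 16.93 ± 0.15, and the row naming Tm7sf2 and Vps51 at 6.46 ± 0.05 and 6.51 ± 0.07. These values cannot be given to 1 gene of each pair.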
